A study of Mus musculus with 31 samples.

Results

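The nucleus accumbens (NAc), the ventral part of the striatum, was compared with the medial prefrontal cortex (mPFC) in adult C57BL/6J mice that had been fostered repeatedly as pups. Of the 31 one-colour Agilent arrays of the series, 8 belong to this comparison, and they were chosen by sample title: 4 labelled C57_Nac_RCF and 4 labelled C57_mpFC_RCF. The RCF (repeated cross-fostering) label covers both groups. All were 12-week-old wild-type females from litters that were carried once a day, on postnatal days 1 to 4, into the cage of a new dam, so that they ended with the last of 4 adoptive mothers. Weaning was on day 28 and at most 2 mice came from any cage or litter. The further groups used below are C57 controls (C57_Nac_ctr, 4 arrays, and C57_mpFC_ctr, 3 arrays), which were picked up each day and given back to their own mother, and repeatedly cross-fostered DBA2/J mice (DBA_Nac_RCF and DBA_mpFC_RCF, 4 arrays each). The labels do not say whether a NAc and an mPFC sample came from the same mouse or whether the 4 samples of a group came from separate mice, so p-values measure the spread between samples. Tissue was not sorted: fewer cells of a type and less RNA per cell cannot be told apart in any value below.

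As background, most neurons of the NAc are GABA-releasing spiny projection neurons. They carry D1 or D2 dopamine receptors, signal through cyclic AMP, DARPP-32 (Ppp1r1b) and phosphodiesterases, and make opioid and tachykinin peptides. The principal neurons of the mPFC are glutamatergic pyramidal cells, which load vesicles with VGLUT1 (Slc17a7) and keep a transcription factor programme that includes Tbr1, the NeuroD factors and Fezf2. Both regions belong to the circuits of reward and stress coping, and the accumbens receives axons from the prefrontal cortex.

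Values are log2 signals of the deposited matrix unless another scale is named, and the 4 values of a group are given in the order of arrays 1 to 4. Differences are NAc minus mPFC with their SE. A feature is a gene's brightest probe, or an unnamed probe, and it is called when its adjusted p from limma (Benjamini-Hochberg over all 22469 features) is under 0.05. "Rose" and "fell" are used of called features and say where NAc stood relative to mPFC. Between 62.1% and 80.2% of probes per array were well above background, the highest share on mPFC RCF 4. All NAc arrays lay on slide 3 and all mPFC arrays on slide 1, so slide and region cannot be told apart.

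The first array of each group stood against its label. The mean log2 signal of 12 striatal markers (among them Drd1, Adora2a, Penk and Ppp1r1b) was 11.66, 14.60, 14.95 and 15.03 in NAc RCF 1 to 4, against 14.87, 11.51, 12.71 and 12.31 in mPFC RCF 1 to 4. The mean of 5 cortical markers (among them Tbr1, Neurod2 and Nrn1) was 12.69, 8.97, 9.19 and 8.77 in NAc RCF 1 to 4, against 10.96, 13.15, 13.07 and 12.27 in mPFC RCF 1 to 4. NAc RCF 1 therefore lay with the mPFC arrays on both scores, and mPFC RCF 1 lay with the NAc arrays on the striatal score and between the groups on the cortical one. Striatal minus cortical, the scores were -1.02, 5.63, 5.75 and 6.26 in NAc RCF 1 to 4, against 3.90, -1.64, -0.36 and 0.04 in mPFC RCF 1 to 4. Over all matrix features the correlation of NAc RCF 1 averaged 0.974 with NAc RCF 2 to 4 and 0.985 with mPFC RCF 2 to 4, and that of mPFC RCF 1 averaged 0.988 with NAc RCF 2 to 4 and 0.979 with mPFC RCF 2 to 4. How this came about was not tested. Counts over all features are given as labelled and again without NAc RCF 1 and mPFC RCF 1. From the striatal signalling list on, list counts and gene differences are without these 2 arrays unless stated. Few of those genes were called as labelled. By limma, Pde10a (1.85, adjusted p = 0.250), Drd1 (1.72, adjusted p = 0.323), Neurod2 (-3.10, adjusted p = 0.127) and Dlk1 (3.15, adjusted p = 0.183) were not. NAc RCF 1 and mPFC RCF 1 are left out because of region markers, so a larger difference in such markers without them follows in part from the choice.

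**Figure D1:**
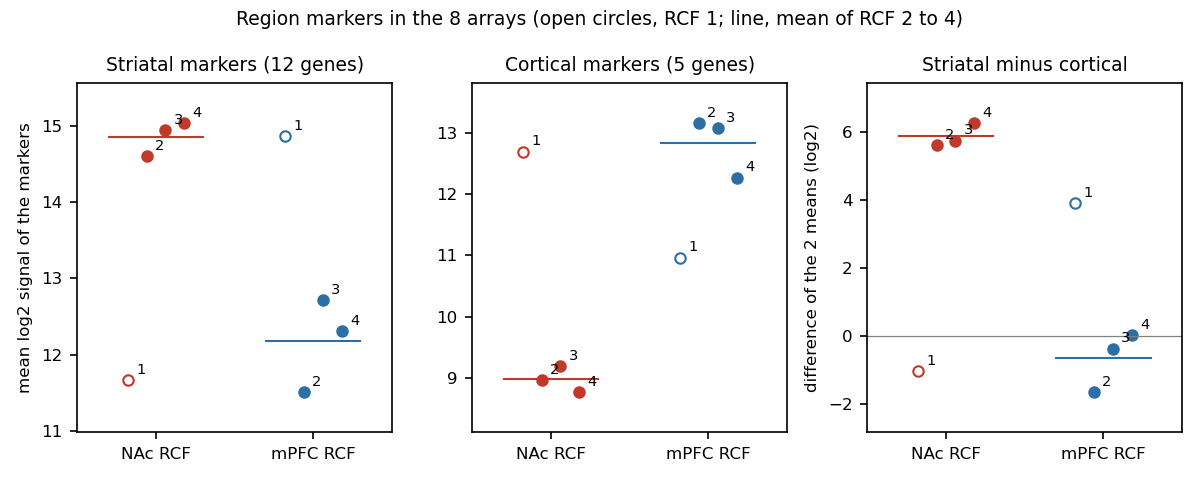
Mean log2 signal of the striatal and of the cortical markers, and the striatal minus the cortical mean, in the 4 NAc RCF arrays (left in each panel) and the 4 mPFC RCF arrays (right). Open circles are the arrays numbered 1 and lines are means of arrays 2 to 4; NAc RCF 1 scored -1.02 and mPFC RCF 1 scored 3.90, each on the side of the other region.

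As labelled, with 4 arrays a group, NAc was higher for 420 features and lower for 166. These 586 calls were 2.61% of the 22469 features (1.87% higher, 0.739% lower), and 5157 features had an unadjusted p under 0.05. The median difference over all features was 0.06. Few region genes were among them: the striatal signalling list had 0 of 27 measured members called, the cortical transcription factors 1 of 29 (Nfia) and the cortical effectors 0 of 22. The groups did not overlap for 3030 features, 13.5% of all (8.56% higher and 4.93% lower).

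Kcnip2, which encodes KChIP2, an accessory subunit of A-type potassium channels, read 9.46, 10.10, 9.97 and 10.37 in NAc, against 8.49, 8.01, 7.38 and 7.58 in mPFC. Every NAc array was above every mPFC array, and the difference was 2.11 ± 0.27, adjusted p = 0.0239. Adcy3, an adenylyl cyclase of neuronal primary cilia, read 8.30, 8.31, 8.27 and 8.44 in NAc, against 6.59, 6.64, 6.73 and 6.96 in mPFC. The first arrays of both groups sat within their own group here, with a difference of 1.60 ± 0.14, adjusted p = 0.0239. Gpr37l1, an orphan receptor of astrocytes, read 11.14, 11.21, 11.25 and 11.18 in NAc, against 9.95, 10.13, 9.24 and 9.70 in mPFC, again without overlap (1.44 ± 0.18, adjusted p = 0.0239). Zfp219, a zinc finger protein, differed by 1.90 ± 0.26, adjusted p = 0.0239, and Ahcy, the enzyme that hydrolyses S-adenosylhomocysteine, by 1.36 ± 0.17, adjusted p = 0.0239.

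Prune2 fell furthest as labelled among the genes chosen, at 7.58, 7.10, 6.98 and 7.14 in NAc, against 9.96, 9.68, 8.70 and 8.93 in mPFC. Its difference was -2.12 ± 0.29, adjusted p = 0.0239. Slc7a8, the amino acid transporter LAT2, read 10.54, 9.53, 9.57 and 9.68 in NAc, against 11.02, 12.09, 12.27 and 11.36 in mPFC: the 2 groups did not overlap, although both first arrays lay nearer to the other region than the rest of their group (-1.86 ± 0.32, adjusted p = 0.0321). Nfia, a transcription factor of glial and neuronal differentiation, read 7.98, 8.43, 7.91 and 7.85 in NAc, against 9.03, 9.004, 9.01 and 9.40 in mPFC and fell by 1.07 on the log2 scale (adjusted p = 0.0298, limma). Tdg, thymine DNA glycosylase, read 7.13, 7.12, 7.41 and 7.56 in NAc, against 8.59, 8.55, 8.63 and 8.004 in mPFC. Its lowest mPFC value was on mPFC RCF 4 and still above every NAc value.

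The remaining genes of the 30 (15 higher and 15 lower, the largest differences without the first arrays among named genes called both ways) follow, some with their role. Higher in NAc were Cacng4 (an auxiliary subunit of AMPA receptors), Grik2 (a kainate receptor subunit), Kcnk2 (the background potassium channel TREK-1), Lrig1 (a brake on growth factor receptors), Rnd2 (a small GTPase), Acads (a mitochondrial fatty acid dehydrogenase), Lhfpl3, Minar2, Zfp971 and Zbtb26. Their differences as labelled ran from 1.19 to 1.85. Lower in NAc were Ptprj (a receptor tyrosine phosphatase), Asic2 (an acid-sensing channel), Dact3 (an inhibitor of Wnt signalling), Sirpa (the receptor of CD47), Hrk (a pro-apoptotic BH3-only protein), Csnk1e (a kinase of the circadian clock), Bcl7a (a chromatin remodelling subunit), Arl8a, Vstm2b, Zfp697 and Stk25. Theirs ran from -1.46 to -0.82. Cacng4 was the single gene of the 30 whose groups overlapped, NAc RCF 1 at 7.19 against mPFC RCF 1 at 7.20.

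**Figure D2:**
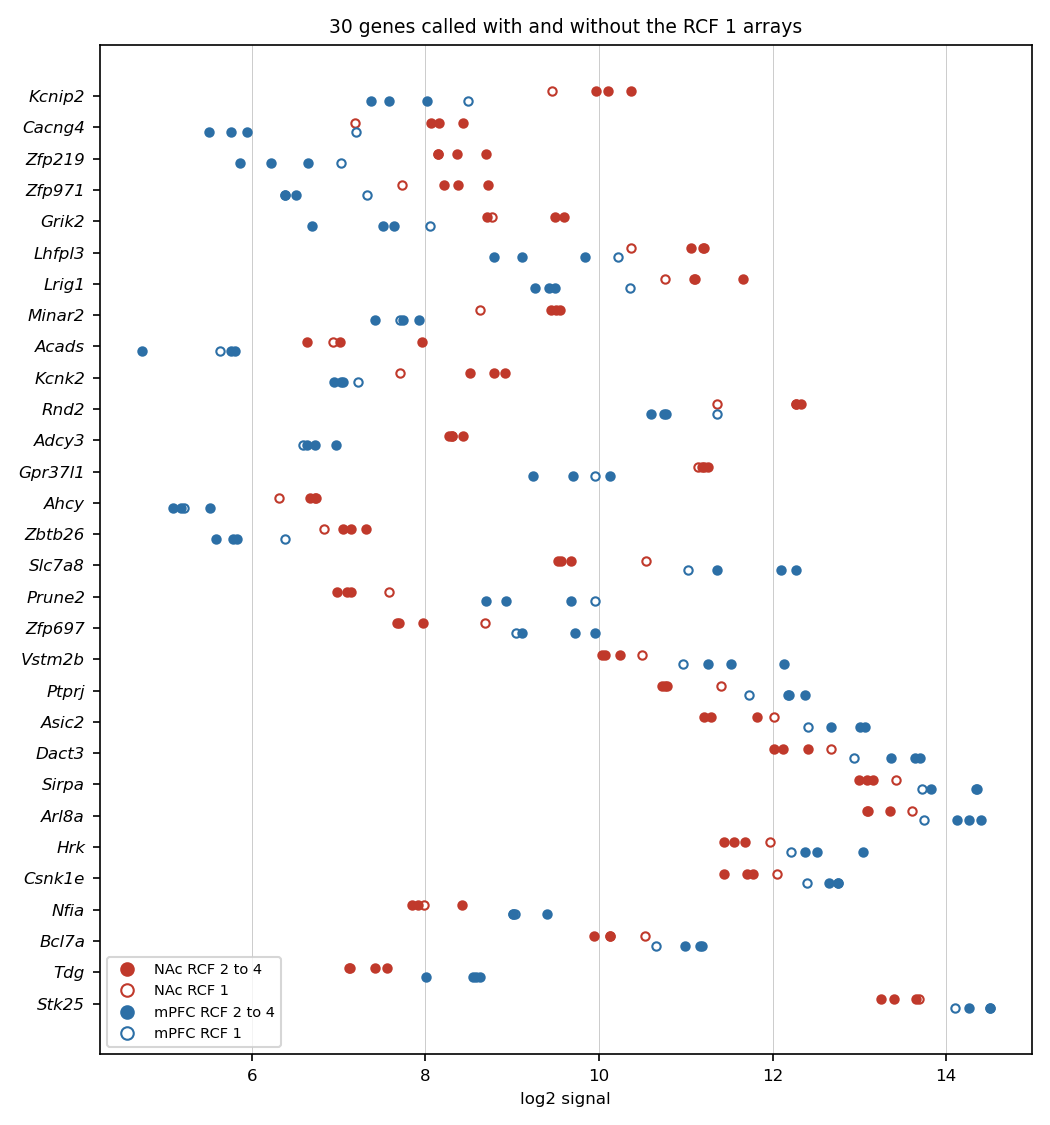
Log2 signal of the 30 named genes called with and without the first arrays, 15 higher in NAc (upper rows) and 15 lower (lower rows); in each row NAc RCF points lie above mPFC RCF points, and open circles are the arrays numbered 1. For 20 of the 30 genes the open circles are the NAc and mPFC points nearest to each other, as for Rnd2, with NAc RCF 1 at 11.36 and mPFC RCF 1 at 11.35.

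Leaving out 1 array changed the count as labelled. No feature was called by limma without NAc RCF 2, 3 or 4 or without mPFC RCF 2 or 3 (3309 to 4106 at an unadjusted p under 0.05), 1540 were called without NAc RCF 1, 1322 without mPFC RCF 4 and 539 without mPFC RCF 1. With arrays centred on their medians the split of calls turned to 265 higher and 509 lower, and with quantile normalization it was 178 higher and 134 lower. With normexp background correction, or with the replicate number as a block, limma called 0 features (3782 and 3671 at an unadjusted p under 0.05).

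Without NAc RCF 1 and mPFC RCF 1, with 3 arrays a group, 2118 features rose and 1675 fell. The 3793 calls were 16.9% of all features (9.43% higher and 7.45% lower), with 7287 at an unadjusted p under 0.05. The groups did not overlap for 8417 features, 37.5% of all (21.9% higher and 15.6% lower). The 2 sets of calls shared 575 features, which is 98.1% of the calls as labelled and 15.2% of the calls without the first arrays, and none of the 575 changed sign. The lists below are read against the 9.43% and 7.45%, and against the median difference of 0.08 over all features. Left out in addition, mPFC RCF 4 raised the count to 7741, and NAc RCF 2, 3 or 4 or mPFC RCF 3 lowered it to 1793, 1651, 1500 or 1411. With arrays centred on medians 1399 rose and 2433 fell, against a median difference of -0.05 over all features. Quantile normalization gave 1617 higher and 1991 lower.

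Receptors and signalling proteins of striatal projection neurons stood higher in NAc: 23 of 27 measured members rose and 0 fell, with a median difference of 2.17. Adora2a, the adenosine receptor of D2-type neurons, read 9.01, 13.30, 13.43 and 13.49 in NAc, against 13.75, 8.87, 10.82 and 9.19 in mPFC. NAc RCF 2 to 4 lay close together and above mPFC RCF 2 to 4, where mPFC RCF 3 was the highest; the first arrays had each other's level. The difference without them was 3.78 ± 0.45, adjusted p = 0.00211, or 13.8-fold; as labelled it was 1.65 ± 1.26, adjusted p = 0.461. Pde10a, the striatal phosphodiesterase that degrades cyclic AMP and cyclic GMP, read 10.97, 13.92, 14.28 and 14.37 in NAc, against 13.71, 10.31, 11.23 and 10.90 in mPFC. It rose by 3.38 ± 0.24. Syndig1l, a relative of the synapse differentiation protein Syndig1, rose by 3.62 ± 0.47.

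Of the list of dopamine synthesis, transport and receptors, 6 of 14 measured members rose and 1 fell. Those that rose were Ddc, the adrenergic receptor Adra2c, and Drd1, Ppp1r1b, Adcy5 and Gnal, which the striatal signalling list holds too. Drd1, the D1 receptor, read 8.63, 11.85, 12.27 and 12.30 in NAc, against 11.82, 7.99, 9.56 and 8.80 in mPFC (without the first arrays 3.35 ± 0.36, adjusted p = 0.00151). Ppp1r1b, the protein phosphatase inhibitor DARPP-32 downstream of D1, read 12.53, 15.60, 16.03 and 16.06 in NAc, against 15.95, 12.40, 13.59 and 12.97 in mPFC. NAc RCF 2 to 4 were all above mPFC RCF 2 to 4, and the difference was 2.91 ± 0.29, 7.52-fold. Ddc, aromatic amino acid decarboxylase, rose by 1.83 ± 0.15, and Maob, the monoamine oxidase of glia and serotonin cells, fell by 0.75 on the log2 scale (-0.75 ± 0.13, adjusted p = 0.00975). The 7 members that did not pass by limma included Drd5 (0.34, adjusted p = 0.505) and the synthesis gene Th (-0.57, adjusted p = 0.0657). The transporters Slc6a3 (-1.05, adjusted p = 0.201, limma) and Slc18a2 (0.51, adjusted p = 0.225, limma) did not pass either. Drd2, Drd3, Drd4 and Dbh had no probe in the matrix and are given with the scanner probes below.

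Downstream parts of the same cascade split by isoform. Of the cyclic nucleotide enzymes, 10 of 27 measured members rose and 6 fell. Pde7b, Pde1b, Pde1c and the cyclase Adcy5, the main striatal isoform, rose by 2.87 ± 0.17, 1.87 ± 0.20, 1.68 ± 0.24 and 1.69 ± 0.18. Adcy1, the calcium-stimulated cyclase of cortical neurons, read 13.54, 11.01, 10.75 and 11.14 in NAc, against 11.36, 13.35, 13.03 and 13.18 in mPFC, so it lay the other way (-2.22 ± 0.14, adjusted p = 2.36e-04). Pde4a and Prkar1b, a regulatory subunit of protein kinase A, fell too (-0.998 ± 0.15 and -0.86 ± 0.24). Of G protein subunits and their RGS regulators, 10 of 27 rose and 4 fell. Rgs9, the regulator that shortens D2 receptor signals in striatum, read 11.61, 15.27, 15.62 and 15.79 in NAc, against 15.72, 11.32, 13.19 and 13.08 in mPFC, a difference of 3.03 ± 0.46. Gng7, Rgs8, Rgs2 and Gnb4 rose by 2.17 ± 0.34, 1.46 ± 0.29, 1.31 ± 0.15 and 1.31 ± 0.13; Rgs6, Rgs4 and Gng2 fell (-1.33 ± 0.31, -1.13 ± 0.29 and -0.73 ± 0.15).

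Transcription factors of striatal identity were higher too: 10 of 18 measured members rose and 0 fell, with a median difference of 1.19. Six3, a homeobox factor of D2-type neurons, read 7.08, 11.12, 10.95 and 11.50 in NAc, against 10.63, 5.72, 7.68 and 6.85 in mPFC, a difference of 4.44 ± 0.45, adjusted p = 0.00120. Zfp503, Foxp2 and the retinoic acid receptor Rarb rose by 3.09 ± 0.28, 2.90 ± 0.42 and 2.64 ± 0.32. Sp8, a zinc finger factor of olfactory bulb interneurons in the list, read 11.44, 6.94, 6.81 and 6.43 in NAc, against 7.25, 8.24, 8.89 and 12.15 in mPFC. High values came from NAc RCF 1 and mPFC RCF 4, and the difference of -3.03 did not pass (adjusted p = 0.0532, limma). Without mPFC RCF 4 as well, 16 members rose and 1 fell, in a fit where 4374 of all 22469 features rose and 3367 fell.

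**Figure D3:**
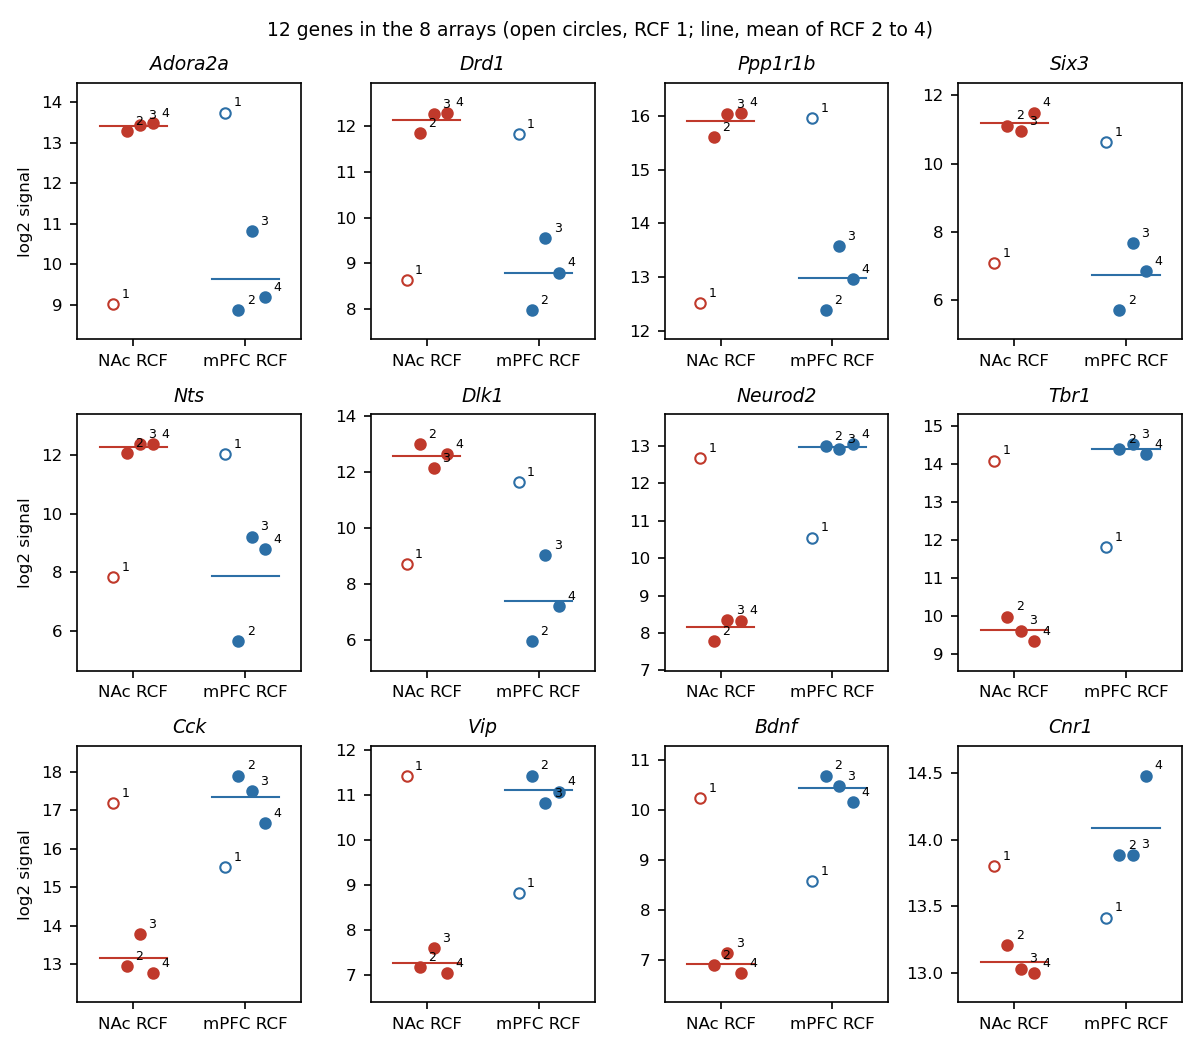
Log2 signal of 12 genes in the 4 NAc RCF arrays (left in each panel) and the 4 mPFC RCF arrays (right); numbers mark the arrays, open circles are the arrays numbered 1 and lines are means of arrays 2 to 4. The first 6 genes were higher in NAc RCF 2 to 4 and the last 6 lower, and NAc RCF 1 lay with mPFC RCF 2 to 4 in most panels, as for Adora2a at 9.01 and Neurod2 at 12.67.

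Cortical genes were mostly lower in NAc. Of the transcription factors of cortical excitatory neurons, 2 of 29 measured members rose and 15 fell, with a median difference of -0.75; of their effectors, 1 of 22 measured members rose and 13 fell, with a median difference of -1.65. Neurod2, a basic helix-loop-helix factor of pyramidal cells, read 12.67, 7.77, 8.34 and 8.33 in NAc, against 10.55, 12.99, 12.92 and 13.05 in mPFC. mPFC RCF 2 to 4 lay close together. The difference was -4.84 ± 0.17, adjusted p = 2.09e-05, or 28.6-fold lower in NAc. Tbr1, a T-box factor of deep-layer neurons, read 14.08, 9.99, 9.62 and 9.34 in NAc, against 11.82, 14.37, 14.51 and 14.25 in mPFC and fell as far (-4.73 ± 0.17). mPFC RCF 1 lay between the regions for both genes, at 10.55 for Neurod2 and 11.82 for Tbr1. Tle4, a corepressor of layer 6 neurons that striatal neurons express too, and Pou3f3 rose (1.28 ± 0.23 and 0.75 ± 0.16).

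Among the effectors, Cck, the cholecystokinin precursor, read 17.18, 12.94, 13.79 and 12.78 in NAc, against 15.52, 17.90, 17.49 and 16.65 in mPFC. It fell by 4.18 on the log2 scale, 18.1-fold (-4.18 ± 0.37, adjusted p = 7.51e-04). Nrn1 (neuritin, an activity-regulated growth protein) read 13.26, 8.93, 9.64 and 8.06 in NAc, against 11.05, 13.76, 13.61 and 12.81 in mPFC. Rtn4r, the Nogo receptor, and Fhl2, a LIM-domain cofactor, fell too (-4.13 ± 0.29 and -3.46 ± 0.15). Crym, a thyroid hormone binding protein, was the 1 member that rose (0.74 ± 0.19, adjusted p = 0.0367).

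Neuropeptides went both ways: 8 of 27 measured members rose and 6 fell, with a median difference of -0.05. Nts, the neurotensin precursor, read 7.84, 12.08, 12.38 and 12.38 in NAc, against 12.04, 5.64, 9.22 and 8.79 in mPFC, with mPFC RCF 2 the lowest, and rose by 4.40 ± 0.82, adjusted p = 0.0115. Cartpt, the precursor of the CART peptides of accumbens neurons, read 10.02, 13.95, 14.16 and 13.90 in NAc, against 13.63, 9.12, 11.04 and 10.41 in mPFC and rose by 3.81 ± 0.42. Vip, vasoactive intestinal peptide of cortical interneurons, read 11.41, 7.17, 7.58 and 7.04 in NAc, against 8.80, 11.42, 10.81 and 11.06 in mPFC and lay the other way (-3.84 ± 0.22, adjusted p = 1.20e-04). Adcyap1, the PACAP precursor of cortical excitatory neurons, differed by -3.94 ± 0.34, Crhbp, which binds corticotropin-releasing hormone, by -1.46 ± 0.30, and the receptor Crhr1 by -1.06 ± 0.15.

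The 250 bases before the transcription start of 4 of these peptide genes, 2 that rose and 2 that fell, are printed to set promoters of opposite sides beside each other (RefSeq, GRCm38.p6). The 4 were chosen after their values and sequences were seen. Capitals mark the core of the cyclic AMP response element, TGACG, or its reverse complement CGTCA; in the Cartpt promoter 2 cores overlap as the full palindrome TGACGTCA. The core on either strand was in 17.8% of the 32851 promoter windows of this length in the table, and the full palindrome in 1.55%.
Nts promoter (chr10:102490419-102490668, minus strand): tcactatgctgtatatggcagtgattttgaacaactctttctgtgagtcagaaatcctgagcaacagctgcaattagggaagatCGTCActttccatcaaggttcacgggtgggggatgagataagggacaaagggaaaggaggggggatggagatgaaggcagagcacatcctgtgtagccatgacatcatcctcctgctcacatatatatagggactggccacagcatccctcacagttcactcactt
Cartpt promoter (chr13:99900684-99900933, minus strand): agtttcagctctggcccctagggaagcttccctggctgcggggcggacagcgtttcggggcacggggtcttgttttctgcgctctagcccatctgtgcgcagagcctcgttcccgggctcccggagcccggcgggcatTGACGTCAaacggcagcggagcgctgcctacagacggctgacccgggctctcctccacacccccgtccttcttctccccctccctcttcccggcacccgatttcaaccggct
Cck promoter (chr9:121495695-121495944, minus strand): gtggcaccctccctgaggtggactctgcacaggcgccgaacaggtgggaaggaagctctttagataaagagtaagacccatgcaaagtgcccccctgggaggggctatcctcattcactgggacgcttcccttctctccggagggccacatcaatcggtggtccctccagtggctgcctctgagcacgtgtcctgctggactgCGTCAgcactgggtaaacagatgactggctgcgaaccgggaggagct
Vip promoter (chr10:5638968-5639217, plus strand): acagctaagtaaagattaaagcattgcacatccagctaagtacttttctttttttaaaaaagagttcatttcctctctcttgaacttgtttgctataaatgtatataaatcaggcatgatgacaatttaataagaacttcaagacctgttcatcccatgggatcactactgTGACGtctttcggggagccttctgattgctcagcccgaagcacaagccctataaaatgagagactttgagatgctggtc

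Nts and Cartpt rose and Cck and Vip fell, and each of these promoters held a core. The genes were chosen with values and sequences seen, so cores on both sides follow from that choice. Whether a core goes with the direction was not tested. The match began 166 bases before the start in Nts, 112 in Cartpt, 47 in Cck and 79 in Vip.

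Transmitter genes went both ways. Of GABA synthesis and receptor genes, 5 of 20 rose and 3 fell. Gad2, a GABA-synthesizing decarboxylase, read 13.17, 15.04, 14.91 and 14.95 in NAc, against 14.76, 12.18, 12.90 and 13.32 in mPFC (2.16 ± 0.26, adjusted p = 0.00232). The vesicular GABA transporter Slc32a1 and the GABA transaminase Abat rose by 1.32 ± 0.21 and 1.21 ± 0.16. Gad1 read 14.52, 14.96, 14.70 and 14.76 in NAc, against 14.53, 13.20, 13.28 and 14.61 in mPFC; mPFC RCF 4 matched the NAc arrays, and the difference of 1.11 ± 0.35 did not pass (adjusted p = 0.0677, limma). The receptor subunits Gabra3 and Gabra5 and the GABA-B subunit Gabbr2 fell (-0.88 ± 0.11, -0.83 ± 0.22 and -1.25 ± 0.34).

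Of glutamate receptors and transporters, 2 of 26 rose and 5 fell. Grik2, also called as labelled, read 8.77, 9.60, 9.49 and 8.71 in NAc, against 8.05, 6.70, 7.64 and 7.51 in mPFC. The NMDA receptor subunit Grin2a fell (-1.36 ± 0.13, adjusted p = 0.00113), as did the AMPA receptor subunit Gria3 (-1.28 ± 0.21) and the presynaptic receptor Grm8 (-1.58 ± 0.19). The share that rose, 2 of 26, was near the background of 9.43%.

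Of potassium channel genes 5 of 34 rose, 14 fell and 15 were not called. Kcnj3, the GIRK1 subunit opened by G proteins, read 8.98, 6.71, 6.51 and 6.26 in NAc, against 7.33, 8.56, 8.58 and 8.68 in mPFC and fell by 2.11 on the log2 scale (-2.11 ± 0.19, adjusted p = 8.07e-04). Kcnh7 and Kcnv1, voltage-gated subunits, differed by -1.86 ± 0.23 and -1.80 ± 0.19. Those that rose included Kcnip2, Kcnk2, Kcnip1 and Kcnab1 (2.49 ± 0.21, 1.73 ± 0.18, 1.20 ± 0.24 and 1.04 ± 0.17). Of calcium-binding and calmodulin-dependent signalling genes 1 of 27 rose, 8 fell and 18 were not called. Nrgn, neurogranin of cortical dendrites, read 13.92, 10.77, 10.95 and 11.08 in NAc, against 12.29, 14.41, 13.51 and 12.66 in mPFC; Ncald, neurocalcin, Camkk2 and the ryanodine receptor Ryr2 fell with it (-2.59 ± 0.38, -2.53 ± 0.21, -1.28 ± 0.23 and -1.24 ± 0.12), and Ryr1 rose by 1.10 ± 0.28.

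Of the endocannabinoid genes 0 of 9 measured rose and 6 fell, with a median difference of -0.95. Cnr1, the CB1 receptor, read 13.80, 13.21, 13.03 and 13.0004 in NAc, against 13.41, 13.88, 13.89 and 14.48 in mPFC, and fell (-1.004 ± 0.18, adjusted p = 0.0105). Dagla, Daglb and Napepld, which make the lipids, differed by -1.04 ± 0.23, -0.69 ± 0.13 and -1.26 ± 0.18, and Faah, which breaks anandamide down, by -1.44 ± 0.24. Faah read 9.11, 7.29, 6.65 and 7.42 in NAc, against 7.21, 8.67, 8.40 and 8.61 in mPFC. The other 3 members did not pass by limma: the hydrolases Mgll at -0.56 (adjusted p = 0.0866), Abhd6 at -0.37 (adjusted p = 0.0783) and Abhd12, which was higher by value, at 0.38 (adjusted p = 0.0894).

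Of activity-regulated genes 0 of 22 rose, 10 fell and 12, among them Fos, Fosb and Npas4, were not called (median difference -0.85). Bdnf, brain-derived neurotrophic factor, which cortical cells supply to the striatum, read 10.25, 6.91, 7.15 and 6.75 in NAc, against 8.58, 10.69, 10.49 and 10.16 in mPFC and fell by 3.51 on the log2 scale, 11.4-fold (-3.51 ± 0.20, adjusted p = 1.20e-04). Nptx2, a pentraxin of excitatory synapses, and Dusp6, a phosphatase of ERK, differed by -2.27 ± 0.18 and -1.62 ± 0.16. Egr1 read 14.29, 13.06, 13.07 and 13.46 in NAc, against 13.83, 14.34, 14.07 and 14.66 in mPFC. Nr4a2 read 10.20, 8.43, 7.36 and 8.25 in NAc, against 8.24, 9.46, 9.34 and 12.43 in mPFC; the value of mPFC RCF 4 was far above the other mPFC arrays and the difference did not pass (adjusted p = 0.0715, limma).

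Receptors for other amines and acetylcholine split 3 higher to 7 lower of 18 measured. Chrm1, the M1 muscarinic receptor, read 11.54, 10.44, 10.57 and 10.79 in NAc, against 11.10, 12.08, 12.22 and 12.24 in mPFC (-1.58 ± 0.13, adjusted p = 5.69e-04). The serotonin receptor Htr2a and the muscarinic receptor Chrm3 fell too (-1.74 ± 0.29 and -1.60 ± 0.31), and the serotonin receptor Htr7 and the adrenergic receptor Adra2c rose (1.23 ± 0.15 and 1.18 ± 0.24). Of vesicle proteins 3 of 29 rose and 8 fell. Stx1a, syntaxin of the presynaptic membrane, and Sv2b fell (-2.49 ± 0.21 and -2.38 ± 0.12), and Sv2b read 13.24, 10.71, 10.98 and 10.78 in NAc, against 11.07, 13.21, 13.26 and 13.12 in mPFC. Sv2a, its paralog, rose (0.76 ± 0.16) and was among the calls as labelled (0.87 ± 0.14, adjusted p = 0.0298).

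Wiring genes showed single large differences. Of axon guidance ligands and receptors 5 of 43 rose and 11 fell. Ntn1, netrin-1, read 7.35, 10.47, 10.19 and 10.21 in NAc, against 10.30, 6.99, 8.19 and 8.29 in mPFC and rose by 2.47 ± 0.33, adjusted p = 0.00372. The ephrin receptor Epha8, the ligand Efnb3 and the Slit receptor Robo1 rose by 2.06 ± 0.30, 1.68 ± 0.29 and 1.07 ± 0.19, and Robo2 and Sema7a fell (-1.43 ± 0.15 and -1.39 ± 0.20). The paralogs Robo1 and Robo2 thus lay on opposite sides. Of cadherins and protocadherins 0 of 27 rose and 4 fell, among them Celsr2, Cdh12 and Cdh10 (-1.42 ± 0.17, -1.25 ± 0.20 and -1.13 ± 0.13). Without mPFC RCF 4 as well, the cadherin count was 6 higher and 7 lower. In that fit 4374 of all 22469 features rose and 3367 fell, so the share of cadherins that rose was near that of all features.

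Of steroid and vitamin A nuclear receptors and their partners 5 of 25 measured members rose and 4 fell. Rarb read 9.98, 13.18, 13.54 and 13.52 in NAc, against 13.57, 10.04, 11.42 and 10.86 in mPFC, and its partner Rxrg rose by 2.00 ± 0.30. Nr2f1, a nuclear receptor of cortical patterning, read 14.32, 12.37, 12.24 and 12.42 in NAc, against 13.01, 14.73, 14.51 and 14.52 in mPFC and fell (-2.24 ± 0.12, adjusted p = 9.17e-05). Nr3c2, the mineralocorticoid receptor, rose by 1.13 ± 0.23. As labelled no member of the list was called.

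Cholinergic markers were higher in NAc and several cortical interneuron markers lower: of the interneuron list 4 of 21 rose and 6 fell. Slc5a7, the choline transporter, read 7.25, 11.32, 11.53 and 11.59 in NAc, against 11.30, 5.92, 8.28 and 6.70 in mPFC and rose by 4.52 ± 0.52, adjusted p = 0.00194. Slc18a3, the vesicular acetylcholine transporter, read 7.32, 11.10, 10.83 and 10.81 in NAc, against 11.37, 6.93, 8.21 and 6.47 in mPFC. Both genes mark striatal interneurons and also the cholinergic cells of the neighbouring basal forebrain, and which of them was sampled was not tested.

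Glial lists had smaller medians than the striatal lists. Of oligodendrocyte markers 7 of 22 rose and 0 fell (median 0.71). Opalin, a myelin membrane protein, read 8.92, 10.01, 9.92 and 9.59 in NAc, against 9.22, 7.81, 8.18 and 8.53 in mPFC (1.66 ± 0.22, adjusted p = 0.00348), and Aspa, Mag and Olig1 rose by 1.03 ± 0.21, 0.96 ± 0.26 and 0.93 ± 0.22. The mean of the whole oligodendrocyte list was 11.68, 12.30, 12.18 and 12.20 in NAc RCF 1 to 4, against 12.17, 11.40, 11.55 and 11.95 in mPFC RCF 1 to 4. mPFC RCF 4 lay above the other 2 mPFC arrays kept. Without it 16 members rose and 1 fell, in a fit where 4374 of all 22469 features rose and 3367 fell. With arrays centred on medians 4 members rose, where 1399 of all features did. Of astrocyte markers 4 of 20 rose and 1 fell: Agt, angiotensinogen, read 7.18, 9.48, 8.98 and 8.61 in NAc, against 8.49, 6.55, 6.56 and 5.34 in mPFC, a difference of 2.88 ± 0.38, and Fabp7 fell (-0.90 ± 0.23). The median of the astrocyte list, 0.06, turned to -0.07 with arrays centred on medians.

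Microglial genes were among the few listed genes called as labelled. Laptm5, a lysosomal protein of immune cells, read 9.99, 9.68, 9.78 and 9.71 in NAc, against 8.94, 8.80, 8.77 and 8.87 in mPFC, without overlap on all 8 arrays (0.95 ± 0.12, adjusted p = 0.0239). The complement gene C1qb read 10.74, 10.49, 10.55 and 10.54 in NAc, against 9.85, 10.15, 9.84 and 9.83 in mPFC (0.66 ± 0.12, adjusted p = 0.0337). The chemokine receptor Cx3cr1 read 12.19, 12.05, 12.17 and 12.08 in NAc, against 12.51, 12.63, 12.64 and 12.69 in mPFC and fell by 0.50 on the log2 scale (adjusted p = 0.0342, limma). These genes mark the same cells and lay in opposite directions, and of the 20 microglia markers 3 rose and 2 fell without the first arrays. Of vascular and meningeal markers 0 of 27 rose and 4 fell, the endothelial genes Cdh5, Egfl7, Esam and Slc2a1 (-0.93 ± 0.18, -0.91 ± 0.15, -0.48 ± 0.14 and -0.45 ± 0.11). Of choroid plexus and ependymal markers 4 of 10 rose and 1 fell: Clic6 read 8.39, 12.32, 11.99 and 12.15 in NAc, against 11.61, 6.38, 8.44 and 7.58 in mPFC, and Aqp1 read 10.75, 6.38, 6.37 and 5.88 in NAc, against 6.23, 10.03, 9.39 and 8.08 in mPFC. They differed by 4.69 ± 0.45 and -2.95 ± 0.46. Of this list 5 members were not called by limma, among them Folr1 (-0.60, adjusted p = 0.305) and Kcnj13 (0.11, adjusted p = 0.858). Aqp1 was high on NAc RCF 1 and Clic6 was not.

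Imprinted genes, which are expressed from 1 parental allele and several of which act in the hypothalamus and in maternal care, had 11 of 27 measured members higher and 0 lower (median 0.60). Dlk1, a Notch-like membrane protein, read 8.71, 13.001, 12.13 and 12.65 in NAc, against 11.65, 5.97, 9.03 and 7.23 in mPFC and rose by 5.18 ± 0.67, adjusted p = 0.00306, 36.3-fold. Nnat, neuronatin, read 11.98, 13.69, 13.48 and 13.42 in NAc, against 12.58, 10.24, 11.12 and 12.72 in mPFC; mPFC RCF 4 was the highest of the mPFC arrays kept. Magel2 rose by 2.13 ± 0.33. Xist, the RNA of the silent X chromosome, read 10.87, 10.87, 10.28 and 10.75 in NAc, against 10.12, 9.19, 9.28 and 9.63 in mPFC in these females, with a difference of 1.14 ± 0.23, adjusted p = 0.0403 as labelled and 1.26 ± 0.20, adjusted p = 0.00640 without the first arrays. Of the Xlr genes, X-linked and partly imprinted, 0 of 3 were called: Xlr3b read 8.36, 9.48, 9.26 and 9.81 in NAc, against 9.25, 8.76, 8.42 and 9.70 in mPFC, and Xlr4a and Xlr4b differed by 0.40 ± 0.42 and 0.36 ± 0.60. Xlr4a and Xlr4b turned negative with normexp background correction. The Xlr genes are near-identical copies, so a probe may read more than 1 of them.

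**Figure D4:**
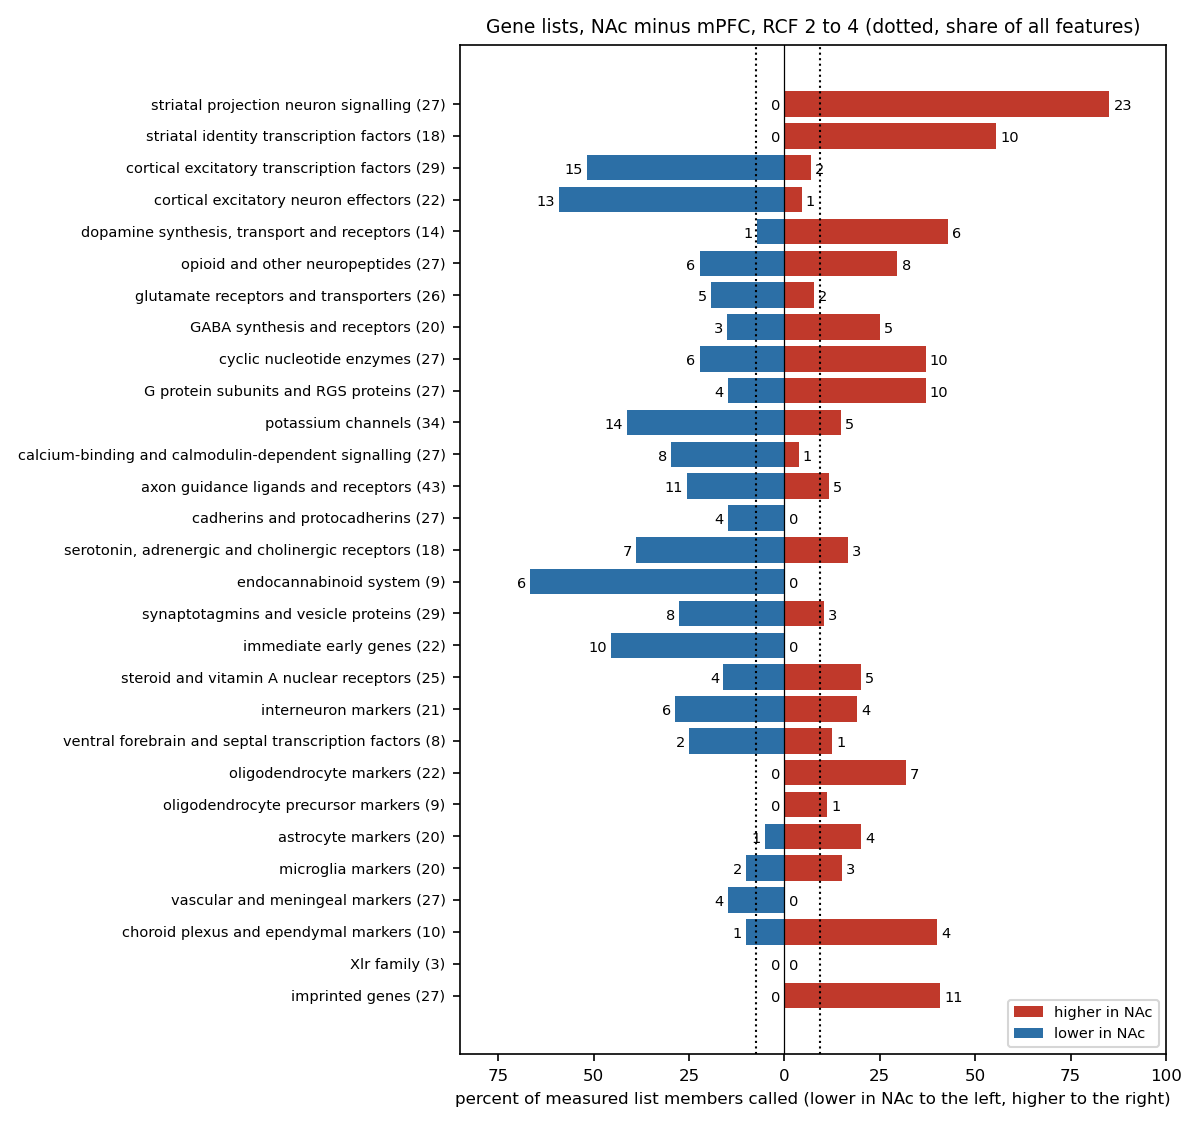
Percent of the measured members of each of 29 gene lists called higher in NAc (red, right) or lower in NAc (blue, left) without the first arrays; the number of measured members is in brackets and counts stand at the bar ends. Dotted lines mark the shares of all features, 9.43% higher and 7.45% lower; the striatal signalling list had 23 members higher and the cortical transcription factors 15 lower.

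Each of the 30067 matrix probes carried the background mark on each of the 31 arrays, so genes that are dim in either region are largely outside the matrix, and these were read from the scanner files. Of the 740 entries of the 29 lists, 638 were measured in the matrix, 61 by scanner probes and 41 by neither. These values are log2 signals relative to each array's 75th percentile. Among 27298 features with probes well above background on at least 3 of 4 arrays of a group, 348 were called as labelled (1.27%; 158 or 0.579% higher and 190 or 0.696% lower) and 4222 without the first arrays (15.5%; 1787 or 6.55% higher and 2435 or 8.92% lower). Of 1863 named genes outside the matrix, 11 were called as labelled and 357 without the first arrays, 164 higher and 193 lower. For 89 of them no kept array of 1 group passed the background mark, so a bound on the fold is printed, against the higher, on each array, of the gene's own signal and the dimmest probe that passed; where the gene's own signal is the higher, the bound equals the fold of the means.

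Drd2, the D2 receptor, read -4.03, -1.20, -1.03 and -0.76 in NAc, against -2.04, -4.22, -4.16 and -4.38 in mPFC on this scale (3.26 ± 0.20, adjusted p = 1.85e-04). Drd3, the D3 receptor of the ventral striatum, read -6.07, -2.08, -1.66 and -1.46 in NAc, against -2.71, -5.37, -4.58 and -5.32 in mPFC, a difference of 3.36 ± 0.30. Both dopamine receptors lay with Drd1, with the first arrays the other way round, while Drd4 did not pass (0.0080, adjusted p = 0.994, limma). Dbh, which makes noradrenaline from dopamine, read -2.98, -5.89, -6.68 and -5.60 in NAc, against -4.36, -2.73, -3.11 and -1.65 in mPFC and fell (-3.56 ± 0.45). Isl1, a LIM-homeobox factor of D1-type and cholinergic neurons, and Tacr3, the neurokinin 3 receptor, rose by 4.70 ± 0.80 and 4.42 ± 0.51.

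The largest rises outside the matrix were Calcr, the calcitonin receptor, and Lhx8, a LIM-homeobox factor of forebrain cholinergic neurons. Calcr read -4.08, 0.29, 0.27 and 0.48 in NAc, against -0.61, -7.34, -3.21 and -6.27 in mPFC, a difference of 5.95 ± 0.91, adjusted p = 0.00571. Lhx8 read -1.83, 2.51, 2.22 and 2.29 in NAc, against 2.22, -5.46, -0.97 and -4.15 in mPFC (5.87 ± 0.97, adjusted p = 0.00740). In both, mPFC RCF 3 read higher than mPFC RCF 2 and 4, and 2 of the 3 mPFC arrays kept were well above background. Cckar, a cholecystokinin receptor, was not well above background on mPFC RCF 2 to 4 and was at least 41.4-fold higher in NAc (adjusted p = 9.10e-04, limma). Slc10a4, a vesicular protein of cholinergic and monoamine neurons, Baiap3, Six3os1 and Sfta3-ps differed by 4.99 ± 0.71, 4.80 ± 0.69, 5.05 ± 1.17 and 5.12 ± 0.74.

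Among the largest falls, Slc17a7, the vesicular glutamate transporter VGLUT1, read 2.32, -3.70, -2.71 and -2.84 in NAc, against -0.42, 2.54, 2.23 and 2.53 in mPFC. The difference was -5.52 ± 0.27, adjusted p = 6.31e-05, or 45.7-fold lower in NAc. Neurod6 read 2.22, -3.92, -2.59 and -3.86 in NAc, against 0.01, 2.46, 2.27 and 1.10 in mPFC, and Prdm8, a zinc finger factor of projection neurons, fell too (-5.67 ± 0.20). Slc30a3, the zinc transporter of glutamatergic vesicles, was not well above background on NAc RCF 2 to 4 and was at least 37.5-fold lower in NAc; Otop2 was at least 32.1-fold lower, and Ccn4 at least 52.5-fold. Ms4a15 read 2.57, -6.53, -4.88 and -7.34 in NAc, against -7.19, -0.94, -0.08 and 1.97 in mPFC, at least 94.9-fold lower.

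Some genes were high on NAc RCF 1 and on mPFC RCF 4. Tbx21 and Eomes, T-box factors of olfactory bulb projection neurons, read 0.25, -5.79, -4.99 and -5.13 in NAc, against -4.31, -2.82, -2.16 and -0.20 in mPFC (Tbx21), and 0.59, -5.20, -4.29 and -4.86 in NAc, against -4.82, -2.39, -1.68 and -0.90 in mPFC (Eomes). NAc RCF 1 was the highest array for both and mPFC RCF 4 the next. Sp8 and Ms4a15 above had the same 2 arrays highest. The list of ventral forebrain and septal transcription factors averaged 8.59, 8.56, 8.08 and 8.16 in NAc RCF 1 to 4, against 8.54, 8.00, 8.15 and 8.83 in mPFC RCF 1 to 4 over its 8 members in the matrix. The part of these arrays' other markers in the region differences was not tested; without mPFC RCF 4 the differences of Neurod2 and Tbr1 were -4.81 and -4.80.

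Across genes, the first arrays often sat with the other region. Of the 3793 features called without them, 1889 (49.8%) had both first arrays nearer to the mean of the other region, 949 had both nearer to their own and 955 (25.2%) had 1 of the 2. Over all features 34.7% had both nearer to the other region and 35.4% had 1 of the 2. The median size of the difference was 1.07 for the first kind and 0.79 for the second. Of the 586 features called as labelled, 558 (95.2%) had both first arrays with their own region and 0 had both with the other. First arrays that lie with the other region make the difference as labelled smaller and its spread wider. Such genes could hardly be called there, so these counts follow in part from the test. All 23 called members of the striatal signalling list had NAc RCF 1 below mPFC RCF 1, as had 9 of the 10 of the striatal factors. NAc RCF 1 minus mPFC RCF 1 had a median of -2.32 over the measured signalling list, against 2.17 for the difference of the other arrays. The 12 striatal markers scored above belong to this list, and the first arrays were set aside by such markers. The opposite signs in these lists thus follow in part from that choice.

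**Figure D5:**
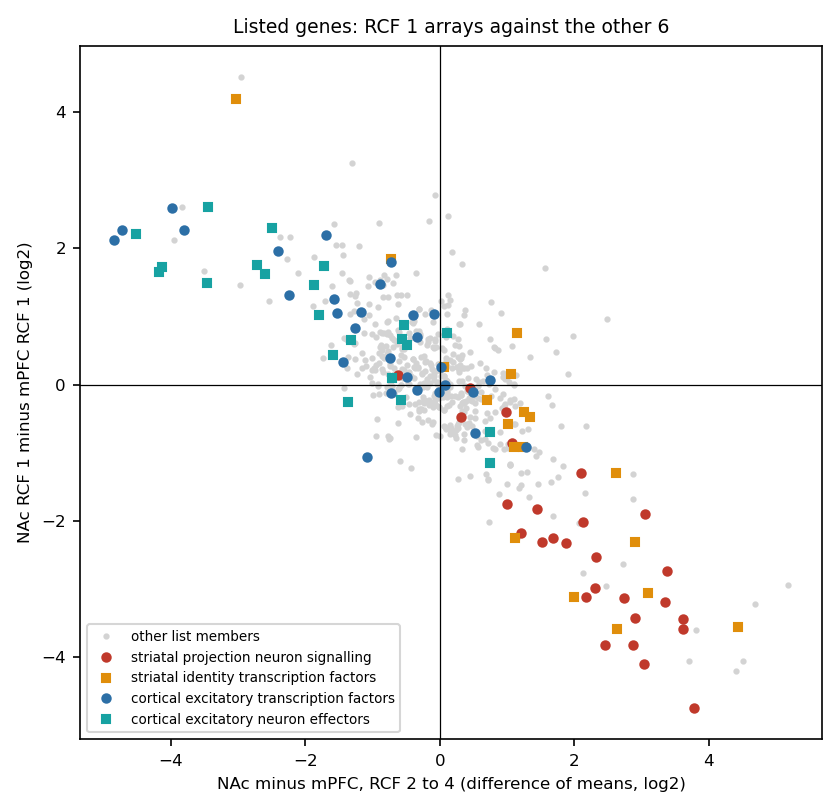
NAc RCF 1 minus mPFC RCF 1 (vertical axis, log2) against the NAc minus mPFC difference of arrays 2 to 4 (horizontal axis, log2) for the listed genes of the matrix; colours mark the 2 striatal and the 2 cortical lists. All 27 striatal signalling genes had opposite signs on the 2 axes, and 23 of the 29 cortical transcription factors did. The first arrays were set aside by such markers, so these signs follow in part from that choice.

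Whether the regional difference depended on the fostering was asked by setting it against that of control C57 mice. As labelled, 0 of 22469 features differed between the 2 region differences by limma (0%; 852 at an unadjusted p under 0.05). The control arrays had region scores from -1.59 to 5.71 in NAc and from -1.75 to 3.25 in mPFC, so arrays there too stood against their label. RCF and control arrays of a region shared a slide. Control NAc arrays 1 and 3, and 2 and 4, were near-duplicates and counted as 2 samples. Without NAc RCF 1, mPFC RCF 1, NAc control 1 and 3 and mPFC control 3, control NAc was 1 sample, assumed to vary like the others, and 3 features passed (0.0134%, with 0.0089% positive and 0.00445% negative; 246 unadjusted): Pip4p1, a phosphoinositide phosphatase, at 3.02, Slc8a2, a sodium-calcium exchanger, at 4.08, and Stk32a, a kinase, at -3.53 (RCF minus control). They rest on that single control sample. The smallest p-values as labelled included Nfia, Shisa2 and Rergl, whose differences were -1.33 ± 0.29, 1.30 ± 0.29 and -1.62 ± 0.36. Nfia averaged 8.04 ± 0.26 in NAc and 9.11 ± 0.19 in mPFC after RCF (SD, n = 4 each), and 9.50 ± 0.50 in NAc (SD, n = 2) and 9.23 ± 0.06 in mPFC (SD, n = 3) of controls. None of these 3 passed after adjustment over all features.

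Against cross-fostered DBA mice, the NAc minus mPFC difference of C57 mice was more positive for 2038 features (9.07%) and more negative for 351 (1.56%). These 2389 were 10.6% of all; without the first arrays 1415 passed (6.3%; 1292 or 5.75% more positive and 123 or 0.547% more negative). DBA mPFC RCF 1 and 3 were near-duplicates and counted as 1 sample. Each strain and region had a slide of its own, so strain and slide cannot be told apart. Of 192 features named by rule, 12 passed both with and without the first arrays; 5 of these were named for the smallest p of this same comparison, and the other 7 for the C57 region difference that it contains. Kcnip2 averaged 10.15 ± 0.21 in NAc and 7.66 ± 0.32 in mPFC of C57 mice (SD, n = 3 each), and 9.61 ± 0.80 in NAc (SD, n = 4) and 9.91 ± 0.19 in mPFC (SD, n = 3) of DBA mice. DBA mPFC was close to DBA NAc, with a difference of differences of 2.78 ± 0.49 (adjusted p = 0.0101, limma). Adcy3 had the same form, 1.90 ± 0.45, and averaged 8.32 in NAc and 8.66 in mPFC of DBA mice. Nfia lay the other way (-1.25 ± 0.28). Of the members of the 2 striatal and 2 cortical lists named above, Nfia and Pou3f3 passed in both fits.

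Probes of 1 gene mostly lay on the same side. Of 3649 genes with several matrix probes, 20 had called probes of opposite sign without the first arrays. Rab3d, a vesicle GTPase, had 1 probe at 1.00 and another at -1.01, both to the same transcript, and Wwox, Stum and Csnk2a1 had such pairs too. The values of these genes depend on the probe chosen and no direction is given for them.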

How the data were processed

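RNA of 31 mouse brain samples was hybridised to one-colour Agilent arrays. Per the file headers, the deposited scanner files hold spot intensity from Agilent Feature Extraction 10.7.3.1, with marks (other values) for outliers and for signal well above background, and the array design is on mm9. The deposited matrix holds log2 values of 30067 probes. Tested on the files, each column was close to the log2 processed signal plus 1 constant, with an SD of the difference of at most 0.0326. The 75th percentile of the first column was 11.4303. For 29 of 31 arrays the listed scanner file belongs to another sample's column, so each array took the sample of the column it equals (correlation at least 0.999925, next at most 0.998). The submitters' processing notes name limma without its role.

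The brightest probe of a gene was kept, giving 22469 features, 13733 of them named. limma 3.58.1 in R 4.3.3 was fitted to the 8 arrays with an intensity trend, and to 6 without the first arrays; interactions used the groups concerned. In other groups 4 pairs of near-duplicate arrays, whose spread was 1.25 to 2.31 times that between repeat spots (5.09 or more for other pairs), were averaged to 1 sample; among the 8 arrays the ratio was at least 6.09. Scanner probes were scaled to each array's 75th percentile. normexp used median signals with an offset of 50, since the mean signal is not used here. The fit was tested on simulated data with the residual spread of the features. With 4 arrays a group it recovered 62% of log2 changes of 1 and 90% of changes of 2. With 3 arrays a group it recovered 33% and 87%, so a feature not called may still differ. Alternatives covered normalization, background, probe choice, filters, weights, the replicate block and each array left out.

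The comparison, its gene lists and tests were chosen with earlier results of these data known. Genes are named by rule: the 15 largest in each direction among those called both ways, up to 6 per list by size without the first arrays plus up to 2 called against the majority, the 5 smallest p of each interaction, 8 in each direction outside the matrix, the Xlr genes and Xist, and 4 with opposed probes; some genes the rule names are not reported here. Promoters came from RefSeq tables of GRCm38.p6 and were matched by symbol.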

Additional observations from a re-analysis of the deposited data

Results flagged for a closer look

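In 136 checks of a group of 4 arrays (list means, marker scores, the 30 genes called both ways and Xist), 24 had 1 array further from the rest than Dixon's 95% limit, where chance gives about 1 in 20 of independent groups. These checks are not independent: lists and scores share arrays and genes, and the first arrays were singled out by region markers. The number given is the gap to the nearest array over the group's range. NAc RCF 1 was the low array for the striatal markers (0.871), the striatal minus cortical score (0.913), the striatal transcription factor list (0.919), the dopamine list (0.854), the G protein list (0.87) and the oligodendrocyte markers (0.835). It was the high array for the cortical markers (0.892), the cortical transcription factor list (0.976), the cortical effector list (0.952), the potassium channel list (0.84), the calcium signalling list (0.851) and the interneuron list (0.849). mPFC RCF 1 stood apart as the low array for the cortical transcription factor list (0.873) and as the high array for the G protein list (0.847). It was the high mPFC array for the imprinted list too (0.834).

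Among single genes, NAc RCF 1 was lowest for Rnd2 (0.93), Minar2 (0.889) and Ahcy (0.848), and highest for Ptprj (0.93) and Slc7a8 (0.856). In mPFC, the array apart was RCF 4 for Nfia (0.925, highest) and Tdg (0.862, lowest), RCF 1 for Zfp971 (0.86, highest) and RCF 3 for Acads (0.842, lowest). Each of these genes was called with and without the first arrays.

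The region difference of C57 minus that of DBA mice, both cross-fostered, was tested as an interaction and passed in both fits for 12 named features. Without the first arrays it was 2.78 for Kcnip2, 1.90 for Adcy3, 1.69 for Zfp219, 1.21 for Pou3f3 and 0.97 for C1qb. It was -1.25 for Nfia and -0.58 for Cx3cr1. The 5 smallest p-values belonged to the olfactory receptor genes Olfr1307 (1.98) and Olfr513 (2.22), to 4930455D15Rik (1.84) and to 2 probes without a gene symbol (2.86 and 3.13). None of these 5 was called between the regions in C57 mice, and in DBA mice their mean was lower in NAc, as for Olfr1307 at 4.89 in NAc and 6.58 in mPFC. Both Olfr1307 values are dim, where the 75th percentile of the first matrix column was 11.43. The comparison with DBA mice was not refitted with other normalization or background correction. Against control C57 mice, Slc8a2 (4.08), Pip4p1 (3.02) and Stk32a (-3.53) differed once the arrays with markers of the other region were left out. That fit holds 1 control NAc sample. Strain and slide cannot be told apart in the comparison with DBA mice.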

How the results depend on the processing

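The count as labelled (586) was 2198 with all 8 groups in 1 model, 10814 with array weights, whose estimate did not converge, 1612 with every probe a feature, 312 with quantile normalization, 348 with scanner probes and 3793 without both first arrays. It was 0 in limma with normexp correction (3782 at an unadjusted p under 0.05) and with the replicate block (3671). Leaving out 1 array gave 0 to 1540. With scanner files as listed it was 0 too (471 unadjusted). The files listed under the C57 RCF samples all equal matrix columns of DBA mPFC samples, so that fit holds no region contrast. The share of calls that were higher was 71.7%, against 57.1% with quantile normalization and 34.2% with median centring. Without the first arrays the count (3793) was 13823 with array weights and 2472 with normexp correction, and 1411 to 7741 with 1 more array left out. There 55.8% of calls were higher, against 44.8%, 36.5% and 45.6% with quantile normalization, median centring and normexp. With the replicate number as a block 3647 were called. Deviations of same-numbered arrays from their group means had correlations of -0.78, -0.39, 0.02 and 0.21. Those means include the first arrays, so the correlations cannot show whether the numbers mark pairs. The labels do not say, and the numbers were not taken as pairs. Scanner probes as labelled gave 348, 0 with normexp (4313 unadjusted) and 4222 without the first arrays. The difference from controls gave 3 calls without the arrays in doubt, against 0, and that from DBA mice 1415 without the first arrays, against 2389, and 1703 to 3090 with 1 array left out. In the fit with 3, control NAc is 1 sample. The cause was not tested. The fit with scanner files as listed compares DBA mPFC arrays with each other, so its signs do not bear on the C57 region difference. There, signs turned, none of them called, for Minar2 (-0.113), Kcnk2 (-0.0797), Prune2 (0.89), Zfp697 (0.0789), Asic2 (0.0503), Dact3 (0.0047), Hrk (0.179), Nfia (0.112) and Tdg (0.0547). With normexp they turned for Xlr4a (-0.0581), Xlr4b (-0.221), Syt2 (-0.0459) and Xlr (-0.333), and Xlr4b ran from -0.148 without mPFC RCF 3 to 1.01 without mPFC RCF 4. Signal over background limits the genes outside the matrix, whose bounds rest on it.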
